A study of Mus musculus with 2 samples.

Results

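The core circadian clock genes were described here in type 5 retinal bipolar cells of the mouse. They are the 10 rows of the deposited expression table, out of 32813, whose symbol is Arntl, Clock, Npas2, Per1, Per2, Per3, Cry1, Cry2, Dbp or Nr1d1, and all 10 symbols were found. Cells of this type were collected with a fluorescence-activated sorter after the retinas of Htr3a-GFP mice had been dissociated, a line whose green fluorescent protein reports the Htr3a promoter. They form the only group of the series, with 2 libraries of total RNA that the submitters describe as biological replicates (replicate 1 and replicate 2). The labels do not state the strain background, age or sex of the mice, how many mice went into a library, or the time of day and lighting at collection. Expression was given in TPM (transcripts-per-million units), which are per transcript length and so allow genes to be compared within a library. Read depth cannot be recovered from TPM, so it is unknown for every value and counting intervals were not possible.

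The clock is a loop of transcription and repression that runs with a period of about a day in nearly every cell. The proteins of Arntl (also called Bmal1) and Clock, or its relative Npas2, pair and bind E-box elements in the DNA, where they switch on the period (Per) and cryptochrome (Cry) genes, whose proteins return to the nucleus and block the pair. The same pair drives Nr1d1, which encodes the repressor REV-ERB alpha of Arntl, and Dbp, which encodes an activator that binds D-box elements. The retina keeps such a clock of its own, and several of these transcripts rise and fall over the day in many tissues.

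All 10 core clock genes were expressed above 1 TPM, and their levels were unequal. Dbp, Cry2 and Nr1d1 stood at 165 to 220 TPM in both libraries, Per3 at 80.3 to 93.2 TPM, and the other 6 at 7.52 to 63.3 TPM. A line of 1 TPM was passed by 10 of 10 members, against 55.5% of the 19968 genes tested (limma on log2(TPM + 1), one-sided, Benjamini-Hochberg adjusted p under 0.05). A line of 10 TPM was passed by 8 of 10, against 32.4%, with Per1 and Npas2 not passing. By value alone, each library had all 10 at 1 TPM or more, against 67.6% of genes that reach it in both. The median of the members was 5.41 on the log2(TPM + 1) scale, and that of the 19968 genes above 0 in either library was 3.22. The fit took each gene's variance from the trend with abundance, so calls took no account of how far apart that gene's own 2 values were. When the 12845 genes at 0 in both libraries were added to the fit, 5 of 10 members passed 10 TPM.

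**Figure D1:**
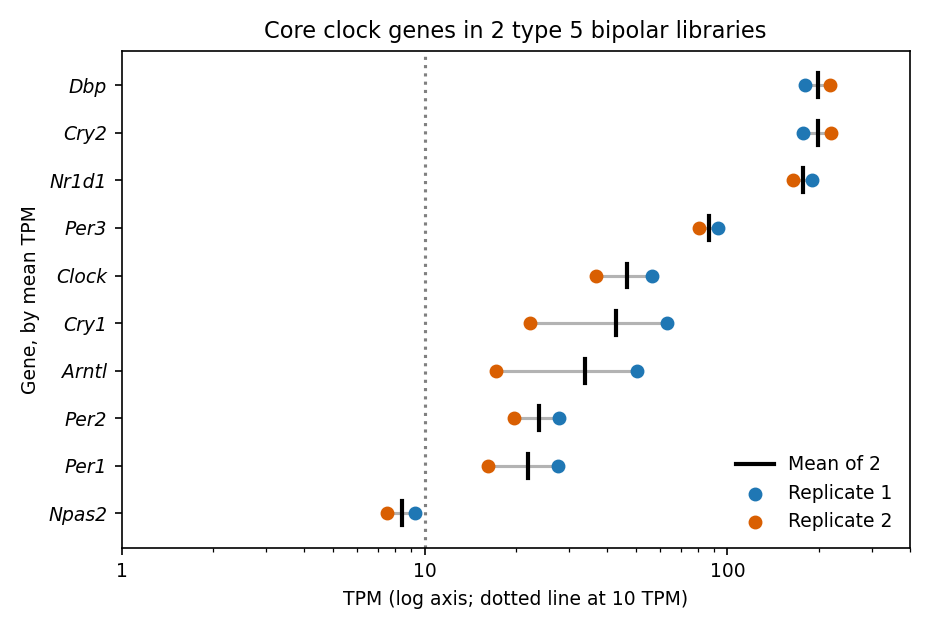
TPM of each core clock gene (horizontal axis, logarithmic) with genes in order of mean TPM (vertical axis). Points are the 2 libraries, the short black bar is their mean, and the dotted line marks 10 TPM. Dbp, Cry2 and Nr1d1 lie above Per3, Per3 lies above the rest, and only Npas2 lies under 10 TPM in both libraries.

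By summed TPM, the activator genes were the lowest arm of the loop in both libraries. Clock, which encodes the partner of the Arntl protein, had 56.2 TPM in replicate 1 and 36.7 in replicate 2, a mean of 46.5 ± 13.8 TPM (SD, n = 2). Arntl, the activator for which Clock and Npas2 are alternative partners, had 50.4 TPM in replicate 1 and 17.2 in replicate 2 (33.8 ± 23.5). Npas2 had 9.33 and 7.52 TPM, the lowest of the members in both libraries. Clock was thus the more abundant of the 2 partner genes in each library, 6.03-fold over Npas2 in replicate 1 and 4.88-fold in replicate 2. Clock and Arntl were at similar levels in replicate 1, with a ratio of 1.11, and Clock was 2.14-fold higher in replicate 2. The 3 activator genes summed to 116 TPM in replicate 1 and 61.4 in replicate 2, which was 13.2% and 7.63% of the total over the members.

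Among the period genes, which encode the repressors that carry cryptochromes into the nucleus, Per3 was the most abundant. Per3 had 93.2 TPM in replicate 1 and 80.3 in replicate 2 (86.7 ± 9.08, SD, n = 2). Per2 had 27.8 and 19.8 TPM (23.8 ± 5.66). Per1, the period gene known to respond quickly to light and to cyclic AMP in other clock tissues, had 27.6 and 16.2 TPM (21.9 ± 8.02). Per3 lay above Per1 and Per2 in both libraries without overlap. The log2 ratio of Per1 to Per3 was -2.03 ± 0.39 and that of Per2 to Per3 was -1.88 ± 0.20 (SD, n = 2). Per1 and Per2 overlapped, with a log2 ratio of -0.15 ± 0.19. Per1 missed the 10 TPM line by the test although it was over 10 TPM in both libraries, and it passed that line in 3 of the 8 other settings.

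The cryptochrome genes, whose proteins are the direct blockers of the Arntl and Clock pair, were unequal. Cry2 had 178 TPM in replicate 1 and 220 in replicate 2 (199 ± 29.8, SD, n = 2). Cry1 had 63.3 and 22.3 TPM (42.8 ± 29.0). Cry2 was the higher in both libraries without overlap, 2.81-fold in replicate 1 and 9.87-fold in replicate 2. The size of that ratio moved more with Cry1, 2.84-fold higher in replicate 1, than with Cry2, 1.24-fold higher in replicate 2. When the libraries were shifted to the same median ratio, the log2(TPM + 1) differences, replicate 2 minus replicate 1, were -1.23 for Cry1 and 0.55 for Cry2. The summed cryptochrome level was 242 TPM in replicate 1 and 243 in replicate 2. The period and cryptochrome genes together exceeded the 3 activator genes 3.36-fold in replicate 1 and 5.85-fold in replicate 2.

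Dbp and Nr1d1 stood with Cry2 at the top of the members. Dbp had 180 TPM in replicate 1 and 219 in replicate 2 (199 ± 27.3, SD, n = 2), which placed it at rank 661 of 32813 symbols by mean TPM. Nr1d1 had 190 and 165 TPM (177 ± 17.5), at rank 788. Cry2 lay between them at rank 663. Dbp, Cry2 and Nr1d1 made up 62.6% of the summed TPM of the members in replicate 1 and 75.1% in replicate 2. In the order of the 10 members by mean TPM, 3 of the 9 steps were free of overlap between the libraries: Nr1d1 over Per3, Per3 over Clock, and Per1 over Npas2. At the other 6 steps the ranges of the neighbours overlapped. Within each library, Cry1 exceeded Arntl, 1.26-fold in replicate 1 and 1.30-fold in replicate 2, and Per2 exceeded Per1, 1.01-fold and 1.22-fold. The other 4 of these pairs changed order between the libraries. Ratios between members were not tested, since the smallest p of an exact two-sided sign test with 2 libraries is 0.5.

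The loop closes through short DNA elements, and the sites found near the starts of the members are shown because they are the letters through which the proteins of some members act on others. RefSeq promoter windows of GRCm38.p6, 250 bases before to 50 after a start, were held for 9 of the 10 members in 13 windows, and not for Per2. The E-box CACGTG, which reads the same on both strands, was found in Per1 and Cry1, 2 of 9 members, against 8.09% of the 27025 genes with a window. By windows the counts were 2 of 13 and 7.15% of 32851. The member windows held 47.0% to 76.7% G and C and 9 to 46 CG pairs, against medians of 52.7% and 7 over all windows. The shares given here and below were not matched for this composition, so they do not measure an excess in the members. In the lines below, written 5′ to 3′ on the strand of the gene, capitals mark the E-box, at position -166 from the first of the 2 starts of Per1 and at -60 for Cry1.
Per1 E-box, chr11:69098771-69098800, plus strand: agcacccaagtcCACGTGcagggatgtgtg
Cry1 E-box, chr10:85185097-85185126, minus strand: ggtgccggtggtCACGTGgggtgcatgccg

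A variant E-box, CACGTT on either strand, was found in Cry1, Cry2 and Nr1d1, 3 of 9 members against 5.44% of genes and 4.68% of windows. In each of these it lies on the strand opposite to the gene and so reads AACGTG, in capitals. It shares 5 letters with the E-box but does not overlap the E-box of Cry1.
Cry1 variant E-box, chr10:85185116-85185145, minus strand: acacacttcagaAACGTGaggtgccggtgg
Cry2 variant E-box, chr2:92434218-92434247, minus strand: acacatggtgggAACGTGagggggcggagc
Nr1d1 variant E-box, chr11:98775388-98775417, minus strand: cgcacagatctcAACGTGccggctgctgga

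The D-box TTATGTAA on either strand, the element bound by the Dbp protein, was found in 1 of 9 members, Per3, against 1.11% of genes and 0.938% of windows. Per3 carries it at 2 places, -205 and -158 from its start, in capitals below. The form TTACGTAA was in none of the members and in 0.126% of genes.
Per3 first D-box, chr4:151044852-151044881, minus strand: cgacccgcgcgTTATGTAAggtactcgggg
Per3 second D-box, chr4:151044805-151044834, minus strand: cccgcccgcggTTATGTAAcccccgccgtg

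The sequence AGGTCA on either strand, a core of the elements bound by REV-ERB and ROR proteins and by other nuclear receptors, was found in Arntl, Clock and Per1, 3 of 9 members against 18.1% of genes and 16.3% of windows. The cyclic AMP element TGACGTCA was in none of the members and in 2.03% of genes, and its shorter form TGACG on either strand, contained in the full element, was in Per1, Cry1 and Cry2, against 23.0% of genes. These matches describe letters in a short window and not binding, and a missing match concerns only that window. Arntl, the classic target of REV-ERB alpha, carries AGGTCA (capitals) at position 32 after the later of its listed starts. The site lies outside the window of the earlier start.
Arntl receptor core, chr7:113207530-113207559, plus strand: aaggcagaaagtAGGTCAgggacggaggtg

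GENCODE M21, an annotation of GRCm38 (mm10), lists all 10 members as protein-coding, on 7 chromosomes. Arntl spans chromosome 7 from 113207465 to 113314126 and Dbp the same chromosome from 45705088 to 45710203, both on the plus strand. Chromosome 1 carries Npas2 on its plus strand (39193731 to 39363236) and Per2 on its minus strand (91415982 to 91459324). Chromosome 11 carries Per1 on its plus strand (69095217 to 69109960) and Nr1d1 on its minus strand (98767932 to 98775333). Clock spans chromosome 5 from 76209868 to 76304792, Per3 chromosome 4 from 151003652 to 151044665, Cry1 chromosome 10 from 85131700 to 85185064 and Cry2 chromosome 2 from 92403646 to 92434043, all on the minus strand. The deposited values are for whole genes, not for single exons or transcripts.

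Overlapping genes touch the 3 highest members, and no source used here says whether counting used strand. Dbp shares 539 exonic bases, 18.0% of its own, with Sphk2 on the opposite strand, a sphingosine kinase gene listed at 13.1 TPM in replicate 1 and 17.2 in replicate 2. Nr1d1 shares 263 exonic bases, 8.55% of its own, with Thra on the opposite strand, a thyroid hormone receptor gene listed at 136 and 116 TPM. Cry2 shares 295 exonic bases, 4.67%, with the noncoding D930015M05Rik on the opposite strand, listed at 13.9 and 6.55 TPM. The part of these overlaps in the levels of Dbp, Nr1d1 and Cry2 was not tested. Arntl shares 33 exonic bases with the antisense gene Gm45355. The spans of Clock, Npas2 and Per3 overlap other genes without shared exonic bases. Among these is Camta1, on the same strand as Per3, at 212 TPM in replicate 1 and 140 in replicate 2. The part of Camta1 in the level of Per3 was not tested. Stretches of 50 bases that also occur in transcripts of another gene, on either strand, made up 16.2% of those of Dbp, 7.27% of Nr1d1, 3.29% of Cry2 and 0.217% of Per3. The other 6 members had none, and no 2 members shared one, so paralogs of the Per and Cry families had no identical stretch of that length.

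The libraries differed most in Arntl and Cry1, which were both higher in replicate 1. Arntl was 2.94-fold and Cry1 2.84-fold higher in replicate 1, and the log2(TPM + 1) differences, replicate 2 minus replicate 1, were -1.50 and -1.46. These were the 2 of 10 members that lay over 2-fold apart, that is by over 1 on this scale. Among the 9807 genes whose mean TPM lies between the lowest and the highest member, 27.3% did so and 17.1% did so with the higher value in replicate 1. Among genes with a mean of 1 TPM or more the share over 2-fold apart was 35.4%. A share of 2 in 10 is near these background shares.

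**Figure D2:**
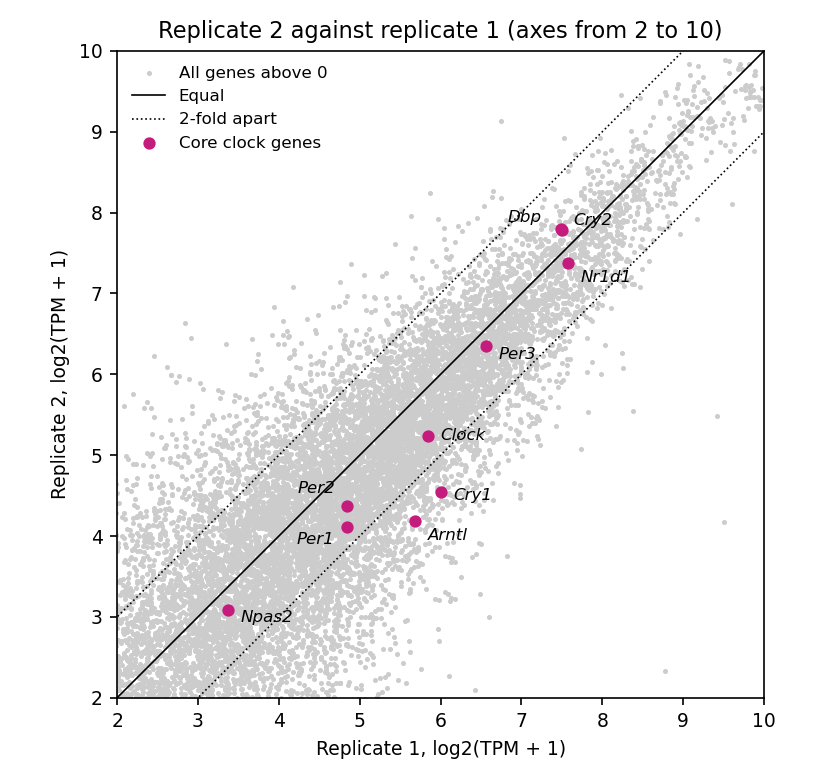
Level of each gene in replicate 2 (vertical axis) against replicate 1 (horizontal axis), both as log2(TPM + 1) and shown from 2 to 10. Grey points are genes above 0 in either library, coloured points are the core clock genes, the solid line marks equal levels and dotted lines 2-fold apart. Arntl and Cry1 fall outside the dotted band on the side of replicate 1, and the points of Dbp and Cry2 coincide slightly above the solid line.

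The other 8 members lay within 2-fold. Clock, Per1, Per2, Npas2, Per3 and Nr1d1 were lower in replicate 2, with log2 differences of -0.60, -0.73, -0.47, -0.28, -0.21 and -0.20. Dbp and Cry2 were higher in replicate 2, by 0.28 and 0.31. In all, 8 of 10 members were higher in replicate 1, against 59.9% of genes of like level, and the median difference was -0.37 over the members and -0.22 over those genes. With the mitochondrial genome left out of the scaling, 8 of 10 were still higher in replicate 1, against 54.1% of genes of like level. When the libraries were instead shifted to the same median ratio, 6 of 10 were higher in replicate 1, against 49.1% of genes. Per3 and Nr1d1 then changed sides, with differences of 0.03 and 0.04. Arntl and Cry1 kept differences of -1.27 and -1.23 under that shift. With 1 library on each side there is no test of these differences.

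**Figure D3:**
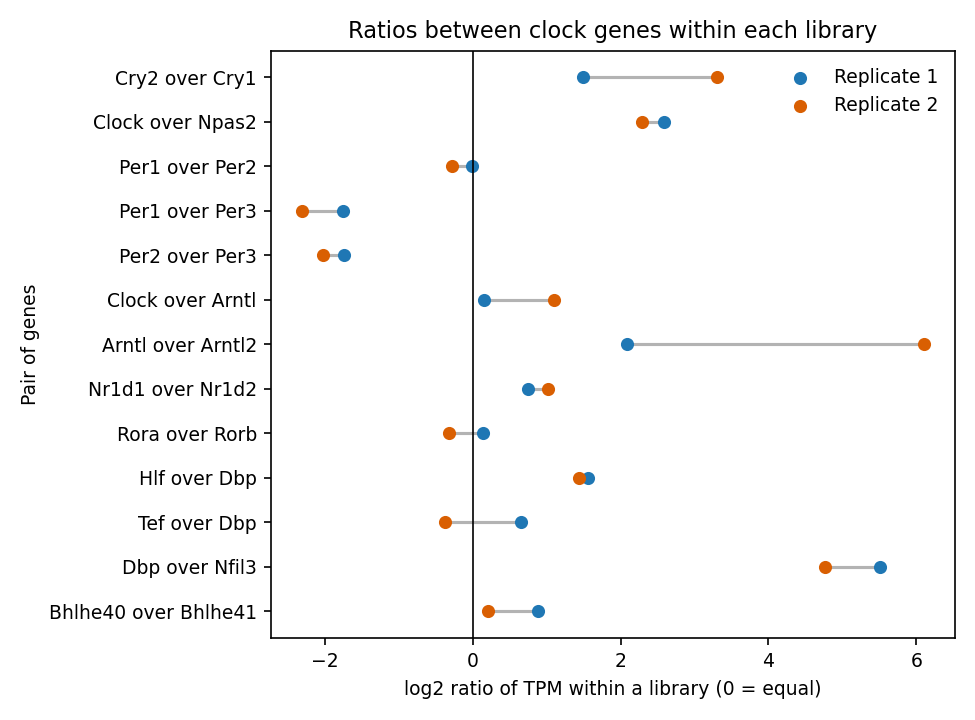
Log2 ratio of TPM between pairs of clock genes within each library (horizontal axis, 0 marks equal levels), with a pair on each line and a point for each of the 2 libraries. The 2 points of Clock over Npas2 and of Hlf over Dbp lie close together, and those of Cry2 over Cry1 and of Arntl over Arntl2 lie far apart.

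Levels in a sorted pool also depend on which cells it holds, and fewer cells of a type and less RNA per cell cannot be told apart in bulk libraries. By the limma test, the type 5 markers were above 1 TPM in 5 of 7, from Kcng4 at 229 and 326 TPM down to Chrm2 at 0.08 and 1.15, and the bipolar markers in 9 of 9, with Cabp5 highest at 1609 and 1064 TPM. The share called over the 19968 genes tested was 55.5%, which applies to each count here. Markers listed at 0 in both libraries were not tested. Type 5 markers summed to 680 TPM in replicate 1 and 759 in replicate 2, and bipolar markers to 7364 and 6796 TPM. Cone markers summed to 189 TPM in replicate 1 and 43.7 in replicate 2 (2 of 8 above 1 TPM, Gnat2 highest at 86.0 and 23.3, Pde6c lowest at 0.46 and listed at 0). The bipolar and cone sums were higher in replicate 1, as were 59.9% of genes of like level to the members, and the type 5 sum was higher in replicate 2. Of the bipolar markers, 5 were higher in replicate 1, Cabp5 among them, and 4 in replicate 2. A link of these sums to Arntl or Cry1 was not tested. Rod markers summed to 1688 and 1750 TPM (8 of 10, Gngt1 highest at 965 and 639, Nr2e3 lowest at 4.60 and 0.91). Muller glia markers summed to 192 and 408 TPM (6 of 9, Glul highest at 75.8 and 124, Rlbp1 lowest by mean at 2.31 and 3.74). Vim, at 0.20 and 119 TPM, made much of that gap, and without it the sums were 192 and 289.5 TPM. Amacrine markers summed to 73.6 and 96.3 TPM (3 of 9, Pax6 highest at 22.3 and 46.5, Chat and Calb2 listed at 0 in both). Ganglion cell markers summed to 31.8 and 73.0 TPM (1 of 8, Thy1 highest at 28.3 and 63.9, with Pou4f2, Nefm and Sncg listed at 0 in both). No member of the horizontal cell, microglia or endothelial lists was called above 1 TPM by limma. Of their 11 genes, 8 were above 0 in either library and so were tested. None passed at an unadjusted p under 0.05 or under another limma setting, although Cx3cr1 (2.01 and 1.34 TPM) and Pecam1 exceeded 1 TPM by value in both libraries. The sums of these lists were 2.49 and 10.4, 2.01 and 14.3, and 2.20 and 2.22 TPM. Their highest members were Calb1 at 0.51 and 9.28 TPM, Aif1 with 13.0 TPM in replicate 2 against a listed 0 in replicate 1, and Pecam1 at 1.8 and 1.2 TPM, and their lowest were Onecut1 at 0.12 and 0.39 and, listed at 0 in both libraries, C1qa, C1qb and Cldn5. Mitochondrial genome RNA was 17.3% of replicate 1 and 24.6% of replicate 2 by TPM, and a larger share lowers every other TPM of a library. The part of other cell types in the levels of the clock genes was not tested.

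Of the genes that work beside the members in the loop, 8 of 11 were called above 1 TPM, against 55.5% of all genes tested, and the same number above 10 TPM, against 32.4%. By value, 10 of 11 reached 1 TPM in both libraries, and 8 to 10 were called in the other limma settings. The second REV-ERB gene, Nr1d2, had 113 TPM in replicate 1 and 81.8 in replicate 2, and Nr1d1 exceeded it 1.67-fold and 2.02-fold. The ROR genes encode activators that compete with REV-ERB proteins for the same elements. Rora had 214 and 155 TPM and Rorb, a member known from the retina, 196 and 194 TPM, so that Rora overlapped Nr1d1 and Rorb lay slightly above it.

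The activator relatives of Dbp were abundant too. Hlf had 529 TPM in replicate 1 and 590 in replicate 2, which was 2.94-fold and 2.70-fold over Dbp, and Tef had 284 and 169 TPM, on either side of Dbp in the 2 libraries. Dbp, Hlf and Tef encode activators that share the D-box with the repressor encoded by Nfil3. Nfil3 had 3.96 and 8.06 TPM and was not called above 1 TPM by the test, and Dbp exceeded it 45.5-fold and 27.1-fold. The basic helix-loop-helix repressors of the loop stood at 153 and 74.1 TPM for Bhlhe40 and 82.9 and 64.4 TPM for Bhlhe41. Ciart, a repressor of the Arntl and Clock pair listed under its older symbol Gm129, had 34.0 and 45.8 TPM. Arntl2, the paralog of Arntl, had 11.9 TPM in replicate 1 and 0.25 in replicate 2, so that Arntl exceeded it 4.23-fold in the former and 68.6-fold in the latter. It was not called above 1 TPM.

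In the list of kinases and ubiquitin factors, 12 of 14 genes were called above 1 TPM, against 55.5% of all genes, and 10 above 10 TPM, against 32.4%. Not every gene of this list encodes a kinase or a ubiquitin factor. Csnk1e, a kinase gene of the period proteins, had 108 TPM in replicate 1 and 102 in replicate 2, Gsk3b 107 and 125 TPM, and Csnk2b 83.9 and 171 TPM. The 2 not called were Csnk2a2, over 1 TPM by value at 6.40 and 5.02 TPM, and Fbxl21, an F-box gene of cryptochrome turnover, listed at 0 and 0.12 TPM. The count was 11 to 13 in the other limma settings and 13 by value. Chromatin and RNA-binding cofactors of the loop were called above 1 TPM in 11 of 11, against the same 55.5%. Sfpq and Nono, which encode RNA-binding partners of the Per complex, had 297 and 267 TPM and 172 and 142 TPM. Ncor1 and Hdac3, which encode the corepressor and deacetylase recruited by REV-ERB, had 302 and 193 TPM and 81.2 and 148 TPM. The lowest were Wdr5 at 21.2 and 16.3 TPM and Sirt1 at 40.1 and 23.3 TPM.

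**Figure D4:**
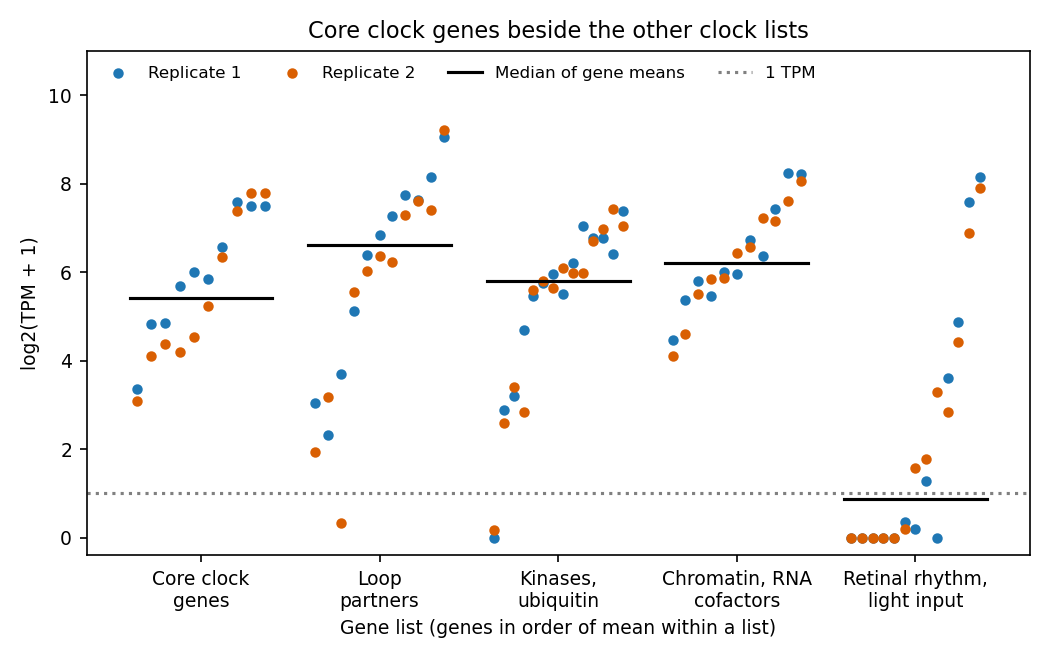
Level of each gene as log2(TPM + 1) (vertical axis) in the core clock genes and in 4 lists of other clock genes (horizontal axis, genes in order of mean within a list). Points are the 2 libraries, black bars the median over genes of the mean level, and the dotted line marks 1 TPM. The bars lie at 5.41 for the core clock genes, 6.60, 5.80 and 6.19 for the next lists, and 0.88 for genes of retinal rhythm and light input.

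Of the 13 genes of retinal rhythm and light input, 4 were called above 1 TPM. The 5 listed at 0 in both libraries were not among the genes tested, of which 55.5% were called. Drd1, the D1 dopamine receptor gene listed as Drd1a, had 281 TPM in replicate 1 and 238 in replicate 2. Noct, the deadenylase-related gene nocturnin listed as Ccrn4l, had 192 and 117 TPM. Creb1, which encodes the factor that binds cyclic AMP elements, had 28.5 and 20.3 TPM, and the kinase gene Sik1 11.2 and 6.15 TPM. Opn4, the melanopsin gene of light-sensitive ganglion cells, was listed at 0 in both libraries, as were the melatonin synthesis gene Asmt, the melatonin receptor genes Mtnr1a and Mtnr1b, and Adcyap1. Drd4, the D4 receptor gene of photoreceptors, had 8.72 TPM in replicate 2 against a listed 0 in replicate 1, and was named after its values were seen. By value alone, replicate 1 had 5 of the 13 at 1 TPM or more and replicate 2 had 7. Over the 4 lists, 35 of 49 other clock genes were called above 1 TPM, against the same 55.5%. The 49 include the 5 genes that were not tested.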

How the data were processed

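The authors deposited 1 table of TPM with a column per library, covering 32813 symbols, with columns summing to 999999.75 and 999999.66. Per the submitters' processing notes, the build was mm10, and RSEM 1.2.28 and TopHat2 2.0.10 were used, with no role stated. Per the labels' protocols, sorted cells went into RNAlater and libraries came from the amplification kit Ovation RNA-seq system V2 of NuGEN. No source used here gives the annotation release or any filter. In the table, replicate 1 has a misspelled gene in its column name and was identified from the number 1 in that name. TPM keeps no depth, so no count test was made.

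The log scale was log2(TPM + 1), so the pseudocount was 1. Levels above 1 TPM and 10 TPM were tested in limma 3.58.1 (R 4.3.3) by fitting only a mean per gene, with the variance following a trend, one-sided, over the 19968 genes above 0 in either library, with Benjamini-Hochberg adjustment and a threshold of 0.05. The estimated prior for the variance was infinite. The procedure was run on simulated data in which the spread of a gene followed its abundance, as the fit assumes. That run could not test genes whose spread lies far from the trend. Python 3.11.15, numpy 2.4.6, pandas 2.3.3 and matplotlib 3.10.9 were used for the rest. Motifs were searched in RefSeq promoter windows, and overlaps and shared 50-base stretches came from GENCODE M21, which may not be the annotation of the authors. For Cry2 and Nr1d1, the bases just after the RefSeq start were not found in a GENCODE transcript of the gene.

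The members, the lists of other clock genes and the marker lists were chosen with earlier results of these data known. Named are all 10 members, the loop partners, the 4 highest and 2 lowest of each other clock list, the highest and lowest of the marker lists, and overlapping genes. Some genes that this rule takes are not reported here. No gene was named for a pattern like a member's, since 2 libraries of 1 group give no measure of likeness. Alternatives covered the pseudocount, the genes tested, the variance model, the scaling and leaving out each library.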

Additional observations from a re-analysis of the deposited data

How the results depend on the processing

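The count of members above 1 TPM was 9 or 10 under every alternative tried, with Npas2 the one not called when all 32813 genes were tested. The count above 10 TPM was 5 when all genes of the table were tested, where Arntl, Cry1 and Per2 were no longer called. Under the other alternatives it was 6 to 9, with Arntl and Per2 not called without the variance trend. The alternative of a robust prior was added after seeing the data and gave 8. The count of retinal rhythm and light input genes was 3 when all genes of the table were tested and 4 in the other limma settings, and ran from 5 without replicate 2 to 7 without replicate 1, both without a test. The 5 ratios between paralogs of the core clock kept their sign with a pseudocount of 1 and in each library alone, from 1.49 to 3.30 on the log2 scale for Cry2 over Cry1. Of the ratios among other loop genes, added after seeing the data, Rora over Rorb ran from -0.32 without replicate 1 to 0.13 without replicate 2, and Tef over Dbp from -0.37 to 0.66, so their signs changed with the library. The median level of the members was 4.89 without replicate 1 and 5.92 without replicate 2. Leaving out a library leaves 1, which gives values and no test. No paired analysis was possible because the series has a single group. TPM keeps no depth, so the limit set by counting could not be given.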
